A study of Mus musculus with 18 samples.

Results

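Reactive astrocyte genes were followed across 18 peritumoral brain libraries in 3 brain metastasis models of the mouse. The set held 8 genes chosen by name: Gfap, Vim, Nes, Serpina3n, Cd44, S1pr3, Steap4 and Emp1. Of these, 7 were found by upper-cased symbol among the 16925 genes of the deposited CPM matrix (read counts scaled to a common library size). Serpina3n was not, and was taken from the deposited count table of 55416 genes, which holds all 8. A matrix row named SERPINA3 carries in every library the reads of another gene, Serpina3f, and was not used for it. All 8 genes passed the filter on low counts, among 17174 genes tested.

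Each library is the tissue resected around the tumours of 1 brain, 10 days after 40000 tumour cells were injected, and all mice are labelled WT. The melanoma model used the B16-F10-BrM4 line (6 brains, replicates 1 to 6), the breast cancer model EO771-BrM3 (6 brains, replicates 14 to 19) and the lung cancer model 482N1 (6 brains, replicates 7 to 11 and 13). Mouse strain, sex and age are not stated in the labels, and each model rests on 1 cell line. No tumour-free brain was among the libraries, so every value is relative to another tumour model. Totals ran from 7366250 to 14533877 counts, and breast replicates 18 and 19 were the shallowest with 7366250 and 7432159. Melanoma replicate 3 and breast replicates 18 and 19 were poor in long transcripts relative to the other libraries. The slope was that of log2 CPM, less each gene's mean over the 18 libraries, on log2 transcript length. It was -0.273, -0.289 and -0.23 in these 3, against -0.129 to 0.199 in the other 15 libraries. The fold changes of Nes, the longest of the 8 genes, and any member's fold change that moved by over 1.5 times or changed sign without those 3 libraries are also given without them.

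Astrocytes answer injury, inflammation and tumour growth by becoming reactive: the cell body enlarges, intermediate filaments build up, and secreted and membrane proteins are switched on. Around brain metastases, reactive astrocytes form a rim at the border of the lesion, and cytokines of the interleukin-6 family acting through gp130 and the transcription factor Stat3 are a known driver of the state. Gfap, Vim and Nes encode filament proteins (glial fibrillary acidic protein, vimentin and nestin) that assemble into one cytoskeletal network. Serpina3n is a secreted inhibitor of serine proteases, Cd44 the receptor for hyaluronan, S1pr3 a receptor for sphingosine-1-phosphate, Steap4 a metalloreductase of the cell surface and vesicles, and Emp1 a small membrane protein with 4 membrane-spanning parts. None of them belongs to astrocytes alone: Vim and Cd44 are also made by tumour, immune and vascular cells, and Nes by endothelial and progenitor cells. In bulk tissue, fewer cells of a type and less RNA per cell cannot be told apart.

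The 8 genes divided the models. Around melanoma, 7 of them were lower than around lung tumours and the same 7 were lower than around breast tumours, while Cd44 passed neither test. Around breast tumours, Steap4 and Nes were higher than around lung tumours and the other 6 did not pass. Summed over the 8 genes, the melanoma libraries held 566 to 1296 CPM (median 951), the breast libraries 3839 to 5172 CPM (median 4456) and the lung libraries 4181 to 7390 CPM (median 5855). The test was edgeR's quasi-likelihood test on the counts with Benjamini-Hochberg adjustment over all 17174 genes, and a gene is said to have risen, fallen or passed at an adjusted p under 0.05. In the test of any difference among the 3 models, 7 of the 8 genes passed, beside 35.8% of all genes. Cd44 was the exception, with an edgeR adjusted p of 0.422.

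**Figure D1:**
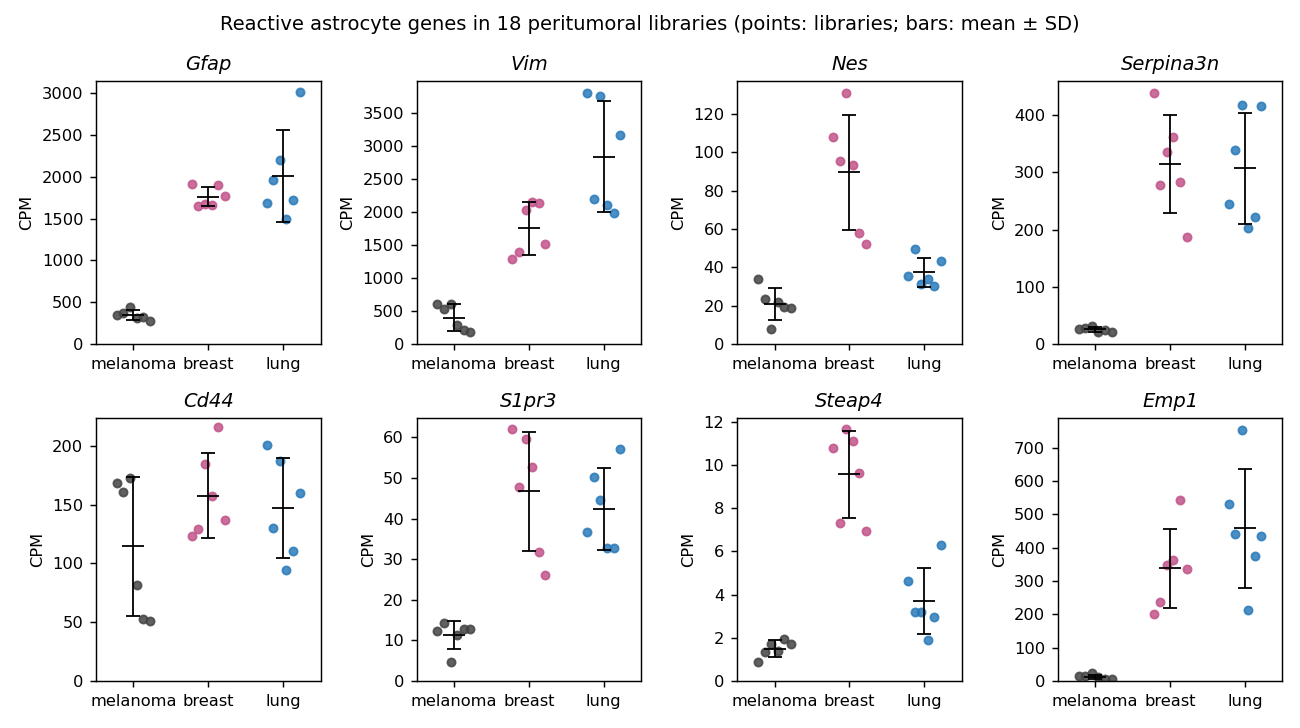
CPM of the 8 genes (vertical axis, scale differs by gene) in each of the 18 libraries, with points for libraries and bars for the mean and SD of 6 brains per model. The melanoma points lie below every breast and lung point for Gfap, Vim, Serpina3n, S1pr3 and Emp1, the breast points lie above every other point for Nes and Steap4, and the 3 models overlap for Cd44.

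Gfap, the main filament protein of astrocytes and the usual stain for the reactive state, had 275, 338 and 449 CPM in the melanoma libraries (lowest, median and highest). It had 1655, 1723 and 1912 CPM in the breast libraries and 1491, 1841 and 3004 CPM in the lung libraries. No melanoma library overlapped a breast or lung library, while the breast and lung libraries overlapped. Gfap averaged 349 ± 59.1 CPM around melanoma, 1762 ± 118 CPM around breast tumours and 2010 ± 546 CPM around lung tumours (SD, n = 6 each). It fell in melanoma against lung (log2 fold change -2.53, SE 0.16, adjusted p = 6.78e-10) and against breast (-2.34, SE 0.16, adjusted p = 2.01e-09). The difference of breast from lung, -0.19 (SE 0.15), did not pass (adjusted p = 0.448). The spread of Gfap was smallest around breast tumours, with a coefficient of variation of 6.68%, against 27.2% around lung tumours, where replicate 13 alone reached 3004 CPM.

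Vim had 180, 408 and 606 CPM in the melanoma libraries, 1286, 1773 and 2143 CPM in the breast libraries and 1983, 2681 and 3796 CPM in the lung libraries. The melanoma libraries were again below all others, and the breast libraries overlapped the lower lung libraries. Vim fell in melanoma against lung (log2 fold change -2.81, SE 0.31, adjusted p = 1.02e-06) and against breast (-2.12, SE 0.30, adjusted p = 1.82e-05). Breast over lung was -0.70 (SE 0.29), which did not pass with all 18 libraries in the fit (adjusted p = 0.113). It passed when the 12 breast and lung libraries were fitted alone (-0.73, adjusted p = 0.0166). Vim is the member nearest to Gfap in its profile over the libraries, with a root mean square difference of 0.49 between their centred log2 CPM. Epithelial genes summed to 309 to 1314 CPM in the lung libraries, 66.6 to 168 CPM in the breast libraries and 4.93 to 5.85 CPM in the melanoma libraries. Their part in the lung level of Vim was not tested.

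Nes, the filament of neural progenitors that adult astrocytes make again after injury, had 7.90, 20.8 and 33.8 CPM in the melanoma libraries. It had 52.3, 94.3 and 131 CPM in the breast libraries and 30.3, 34.9 and 49.6 CPM in the lung libraries. Every breast library was above every lung and melanoma library, and melanoma and lung overlapped through melanoma replicate 1 alone. Nes rose in breast against lung (log2 fold change 1.26, SE 0.27, adjusted p = 0.00218) and fell in melanoma against breast (-2.10, SE 0.28, adjusted p = 7.32e-06). It also fell in melanoma against lung (-0.84, SE 0.27, adjusted p = 0.0287). That call was lost without melanoma replicate 4, lung replicate 8 or lung replicate 13 (adjusted p of 0.064, 0.0698 and 0.06). Without the 3 libraries poor in long transcripts the changes were -0.66 for melanoma over lung, 1.45 for breast over lung and -2.11 for melanoma over breast (adjusted p of 0.00632, 1.21e-05 and 3.57e-07).

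Within a library, the balance of the 3 filament genes differed between models for Nes and did not pass for Vim. The log2 ratio of Nes to Gfap averaged -4.13 ± 0.83 around melanoma, -4.36 ± 0.56 around breast tumours and -5.71 ± 0.34 around lung tumours (SD, n = 6 each). By an exact two-sided permutation test, adjusted over 6 ratio tests, breast exceeded lung by 1.35 (p = 0.00216, the smallest that 6 against 6 libraries can give, adjusted p = 0.013), with no overlap between their libraries. Melanoma exceeded lung by 1.58 (exact p = 0.00866, adjusted p = 0.026), and melanoma and breast differed by 0.24 (adjusted p = 0.704). Leaving out any of 8 single libraries (melanoma replicates 1, 2, 4, 5 and 6, lung replicates 9, 11 and 13) took the melanoma-lung ratio to an adjusted p of 0.0519. The log2 ratio of Vim to Gfap averaged 0.05 ± 0.61 around melanoma, -0.04 ± 0.37 around breast tumours and 0.48 ± 0.43 around lung tumours. None of its 3 differences passed, the nearest being breast minus lung at -0.52 (exact p = 0.0476, adjusted p = 0.0952). Without the 3 libraries poor in long transcripts, the Nes to Gfap ratio of melanoma exceeded that of lung by 1.91 (permutation test, adjusted p = 0.026). Breast exceeded lung by 1.69 (adjusted p = 0.0286), and melanoma and breast differed by 0.22 (adjusted p = 0.305). With all libraries, Nes relative to Gfap was higher around melanoma than around lung tumours, although Nes itself was lower there.

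Serpina3n had 20.8, 25.6 and 32.2 CPM in the melanoma libraries, 188, 310 and 439 CPM in the breast libraries and 203, 292 and 417 CPM in the lung libraries. Melanoma stood apart from both models, which covered nearly the same range. Serpina3n fell in melanoma against lung (log2 fold change -3.58, SE 0.23, adjusted p = 9.54e-10) and against breast (-3.61, SE 0.23, adjusted p = 1.04e-09). Its mean CPM was 11.9-fold lower in melanoma than in lung and 12.2-fold lower than in breast. Breast over lung was 0.03 (SE 0.21, adjusted p = 0.937), and its sign changed with the scaling and with the libraries left out. It was 0.15 without the 3 libraries poor in long transcripts (adjusted p = 0.657). The mouse carries a cluster of near-identical Serpina3 genes, so reads could be split among copies. The other 10 genes of the cluster together held 2.07 ± 2.95 CPM around melanoma, 7.97 ± 4.60 CPM around breast tumours and 20.1 ± 19.2 CPM around lung tumours, small beside Serpina3n itself. The 3 of them that could be tested, Serpina3f, Serpina3g and Serpina3i, fell in melanoma against lung, and Serpina3i fell against breast as well (log2 fold change -3.77, adjusted p = 2.36e-05). Of the 3 against lung, limma voom called 1. Serpina3i was near the floor, with 8 reads in all around melanoma, 112 around breast tumours and 164 around lung tumours.

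Emp1 showed the largest change of the 8 genes. It had 5.85, 12.3 and 23.2 CPM in the melanoma libraries, 200, 343 and 542 CPM in the breast libraries and 214, 438 and 753 CPM in the lung libraries. The lowest breast library, with 200 CPM, lay far above the highest melanoma library, and breast and lung overlapped. Emp1 fell in melanoma against lung (log2 fold change -5.16, SE 0.38, adjusted p = 5.69e-09) and against breast (-4.72, SE 0.37, adjusted p = 1.48e-08). Against lung, 0.693% of all genes tested had a fold change at or below that of Emp1. Breast over lung was -0.44 (SE 0.32, adjusted p = 0.395), and -0.73 without the 3 libraries poor in long transcripts (adjusted p = 0.0999). Of its relatives, Emp2, Emp3 and Pmp22 also fell in melanoma against both models, with log2 fold changes of -1.55 to -0.50 against lung and -1.64 to -0.61 against breast. Emp2 was the one of them that differed between breast and lung (log2 fold change -0.67, adjusted p = 0.00194).

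S1pr3 had 4.54, 12.4 and 14.2 CPM in the melanoma libraries, 26.2, 50.3 and 62.0 CPM in the breast libraries and 32.7, 40.7 and 57.1 CPM in the lung libraries. The melanoma libraries lay below all others, with replicate 3 lowest, and breast and lung overlapped. S1pr3 fell in melanoma against lung (log2 fold change -1.91, SE 0.26, adjusted p = 1.21e-05) and against breast (-2.05, SE 0.26, adjusted p = 4.27e-06). Without the 3 libraries poor in long transcripts these were -1.73 (adjusted p = 2.22e-07) and -2.06 (adjusted p = 8.62e-08). Breast over lung was 0.14 (SE 0.25, adjusted p = 0.75) with all libraries and 0.33 without those 3 (adjusted p = 0.112). Of the other sphingosine-1-phosphate receptors, S1pr1 and S1pr5 passed no comparison, S1pr2 rose in breast against lung (log2 fold change 0.93, adjusted p = 0.0408) and S1pr4 fell in melanoma against breast (-1.25, adjusted p = 0.0346). Both calls were lost without the 3 libraries poor in long transcripts (adjusted p of 0.0734 and 0.0606). S1pr4 held 40 reads around melanoma and 90 around breast tumours. Spns2, the exporter of sphingosine-1-phosphate from cells, fell in melanoma against lung (-0.57, adjusted p = 0.00338) and against breast (-0.97, adjusted p = 1.23e-05) and rose in breast against lung (0.40, adjusted p = 0.0396). S1pr3 shares 45 bases with a lincRNA on the opposite strand, Gm32834, which held 238 reads over all libraries, against 7435 for S1pr3.

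Steap4 was the least abundant member, with 1046 reads over all 18 libraries. It had 0.881, 1.56 and 1.94 CPM in the melanoma libraries, 6.95, 10.2 and 11.7 CPM in the breast libraries and 1.91, 3.18 and 6.29 CPM in the lung libraries. Every breast library exceeded every lung library, and lung replicate 10 fell just inside the melanoma range. Steap4 rose in breast against lung (log2 fold change 1.38, SE 0.24, adjusted p = 0.000316). It fell in melanoma against lung (-1.30, SE 0.26, adjusted p = 0.000848) and against breast (-2.68, SE 0.26, adjusted p = 1.78e-07). Its paralog Steap2, also a metalloreductase, followed the same order, with 23.7 ± 3.90 CPM around melanoma, 106 ± 23.2 CPM around breast tumours and 58.2 ± 8.54 CPM around lung tumours. Steap2 passed all 3 comparisons, Steap1 with all libraries fell in melanoma against breast alone (-1.64, adjusted p = 0.0191), and Steap3 rose in melanoma against lung (0.69, adjusted p = 0.0208). Without the 3 libraries poor in long transcripts, Steap1 also fell in melanoma against lung (-1.48, adjusted p = 0.00247).

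Cd44 was the one member that did not separate the models. It had 50.9, 121 and 173 CPM in the melanoma libraries, 124, 147 and 216 CPM in the breast libraries and 94.0, 145 and 200 CPM in the lung libraries, and all 3 ranges overlapped. The log2 fold changes were -0.36 for melanoma over lung (SE 0.30, adjusted p = 0.468), 0.10 for breast over lung (SE 0.30, adjusted p = 0.86) and -0.46 for melanoma over breast (SE 0.30, adjusted p = 0.262). Breast over lung changed sign without the 3 libraries poor in long transcripts, to -0.041 (adjusted p = 0.946). The model accounted for 20.7% of the variance of its log2 CPM, against 77.0% to 96.0% for the other 7 members and a median of 27.9% over all genes tested.

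**Figure D2:**
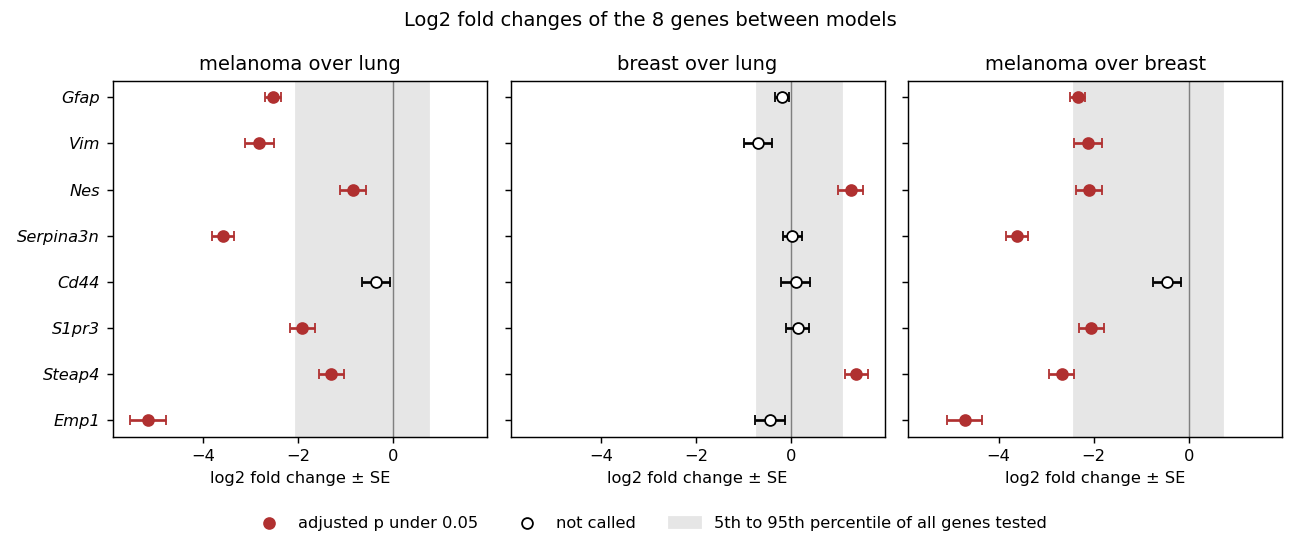
Log2 fold change of each gene (horizontal axis, bars are SE) for melanoma over lung, breast over lung and melanoma over breast, with filled points for an adjusted p under 0.05 and grey bands from the 5th to the 95th percentile of all 17174 genes. Emp1 and Serpina3n lie below the band in both melanoma comparisons, and Steap4 and Nes are the filled points to the right of 0 for breast over lung.

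Against lung, 7 of 8 members fell in melanoma and none rose, where 23.2% of all genes passed, 14.7% falling and 8.51% rising. The members' median log2 fold change was -2.22, against 0.02 over all genes. In 5 of the 8 the libraries of both models did not overlap with melanoma lower, which held for 9.63% of all genes. Against breast, 7 of 8 fell in melanoma and none rose, where 28.9% of all genes passed, 19.2% falling and 9.76% rising, with a median of -2.23 for the members and 0.04 for all genes. That background moved with melanoma replicate 3: without it, 4058 genes fell and 4020 rose among 17342 tested, and the same 7 members fell. With all libraries, the 7 fallen genes did not overlap between melanoma and breast, with melanoma lower, which held for 12.1% of all genes. In breast against lung, 2 of 8 rose and none fell, where 18.3% of all genes passed, 11.2% rising and 7.16% falling, with medians of 0.07 and -0.02. At an unadjusted p under 0.05 in edgeR, none of the 8 rose in melanoma against either model and 1, Vim, fell in breast against lung, and limma voom and DESeq2 also called 0 in those directions. Both risen genes did not overlap, as did 8.94% of all genes. The 7 genes lower in melanoma than in both other models compare with 10.2% of all genes, and the 2 higher in breast than in both with 7.79%. Each pair of comparisons shares the libraries of 1 model, so they are not separate observations.

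The order of the genes by level, per kilobase of transcript, was headed by Vim and Gfap in every model. Around melanoma, Vim had 184 ± 90.8 and Gfap 132 ± 22.3 CPM per kilobase, and the difference was within their spread. Around breast tumours they had 798 ± 180 and 665 ± 44.4, again within the spread, and around lung tumours 1292 ± 383 and 759 ± 206. Serpina3n and Emp1 came next around breast tumours (152 ± 41.4 and 116 ± 41.1 CPM per kilobase) and lung tumours (149 ± 47.0 and 157 ± 61.4), without separating from each other. Around melanoma, Cd44 took the third place with 20.4 ± 10.5 CPM per kilobase, before Serpina3n with 12.5 ± 2.16, which was within its spread, and Emp1 with 4.39 ± 2.19. In the summed CPM of the 8 genes, Cd44 made up 7.99% to 14.02% of each melanoma library, 2.99% to 4.17% of each breast library and 2.20% to 3.07% of each lung library. Steap4 was the lowest everywhere, with 0.475 ± 0.121 CPM per kilobase around melanoma, 3.03 ± 0.635 around breast tumours and 1.17 ± 0.487 around lung tumours.

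Stat3, AP-1 and NF-kB are transcription factors known from reactive glia, and motifs of the 3 were searched in the promoters of all 8 genes. The promoters of Gfap, Emp1 and Steap4 are shown because they held all the matches found, and that of Serpina3n as an example without one. All 4 genes fell in melanoma, as did Vim, S1pr3 and Nes, whose windows held no match. The windows run from 250 bases before to 50 bases after the RefSeq start (GRCm38.p6, 5′ to 3′ on the gene's strand). They lie at chr11:102897151-102897450 on the minus strand for Gfap, and on the plus strand at chr12:104406458-104406757 for Serpina3n, chr6:135362681-135362980 for Emp1 and chr5:7960222-7960521 for Steap4. Capitals mark matches to TTCNNNGAA (STAT) or TGANTCA (AP-1), searched on both strands together with an NF-kB motif.
Gfap: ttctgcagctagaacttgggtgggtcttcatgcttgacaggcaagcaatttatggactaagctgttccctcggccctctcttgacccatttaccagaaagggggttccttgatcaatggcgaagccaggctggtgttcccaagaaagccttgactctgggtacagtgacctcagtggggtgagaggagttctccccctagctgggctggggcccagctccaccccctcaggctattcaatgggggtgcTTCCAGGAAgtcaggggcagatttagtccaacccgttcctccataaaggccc
Serpina3n: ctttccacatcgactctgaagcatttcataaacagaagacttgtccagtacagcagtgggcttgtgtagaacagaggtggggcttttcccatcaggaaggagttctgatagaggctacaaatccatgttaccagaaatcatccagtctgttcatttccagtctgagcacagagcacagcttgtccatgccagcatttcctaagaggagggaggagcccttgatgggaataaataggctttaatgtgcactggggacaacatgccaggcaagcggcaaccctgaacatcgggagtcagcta
Emp1: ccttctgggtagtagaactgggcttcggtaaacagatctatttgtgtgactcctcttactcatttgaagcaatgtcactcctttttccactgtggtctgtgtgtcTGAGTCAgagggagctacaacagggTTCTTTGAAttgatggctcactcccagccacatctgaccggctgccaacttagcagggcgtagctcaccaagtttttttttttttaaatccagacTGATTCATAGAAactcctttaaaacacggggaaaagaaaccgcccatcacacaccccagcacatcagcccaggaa
Steap4: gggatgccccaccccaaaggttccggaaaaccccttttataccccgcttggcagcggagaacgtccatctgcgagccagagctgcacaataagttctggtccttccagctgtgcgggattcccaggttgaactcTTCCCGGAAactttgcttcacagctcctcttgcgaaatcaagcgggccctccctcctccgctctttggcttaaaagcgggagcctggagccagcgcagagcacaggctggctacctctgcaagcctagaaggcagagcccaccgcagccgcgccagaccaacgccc
Gfap holds 1 STAT match, TTCCAGGAA, beginning at position -2 from the start. Steap4 holds 1, TTCCCGGAA, at -116. Emp1 holds STAT matches at -120 (TTCTTTGAA) and -22 (TTCATAGAA) and AP-1 matches at -145 (TGAGTCA) and -25 (TGATTCA), and the last of these overlaps the STAT match at -22. These letters are absent from the windows of Serpina3n, Vim, Cd44, S1pr3 and Nes and from a second Emp1 start, and no window held the NF-kB motif. Among 32851 promoter windows of this length, 8.3% held the STAT letters, 7.81% the AP-1 letters and 0.411% the NF-kB motif. A match describes the sequence and does not show that a factor binds there.

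The other genes of the reactive state moved in much the same way between melanoma and the other models. Of 7 further pan-reactive genes (markers of reactive astrocytes after different injuries), 6 fell in melanoma against lung and 6 against breast. Of all genes, 14.7% and 19.2% fell in those comparisons. Lcn2, a secreted iron-siderophore carrier of inflamed glia, had 2.18 ± 1.06 CPM around melanoma, 45.7 ± 17.8 CPM around breast tumours and 27.4 ± 13.9 CPM around lung tumours. Timp1, an inhibitor of metalloproteinases, was the one that passed between breast and lung in edgeR, with 19.8 ± 4.68 CPM around breast tumours against 61.8 ± 25.7 CPM around lung tumours (log2 fold change -1.64, adjusted p = 0.00687). There, limma voom and DESeq2 each called 2 genes of the list higher in breast and 1 lower. Without the 3 libraries poor in long transcripts, 5 fell in melanoma against lung and 6 against breast, and 1 rose and 1 fell in breast against lung. Osmr, the oncostatin M receptor, fell in melanoma against lung (log2 fold change -1.02) and breast (-1.58). Cp (ceruloplasmin), chosen after its values were seen, was the one gene that passed nothing, with 33.5 ± 8.75, 37.4 ± 3.86 and 34.9 ± 4.04 CPM around melanoma, breast and lung tumours. The list medians were -1.79 for melanoma over lung, 0.56 for breast over lung and -2.20 for melanoma over breast.

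Panels named A1 and A2 were drawn up from astrocytes after lipopolysaccharide and after ischaemia. Of all genes, 14.7% fell and 8.51% rose in melanoma against lung, and 19.2% fell and 9.76% rose against breast. Of the 11 A1 genes tested, 6 fell and 1 rose in melanoma against lung, and 6 fell and 1 rose against breast. Ggta1, a glycosyltransferase, had 7.05 ± 0.749 CPM around melanoma, 80.7 ± 17.4 CPM around breast tumours and 32.3 ± 7.57 CPM around lung tumours, and passed all 3 comparisons. The gene that rose was Fbln5, an elastic fibre protein, with 172 ± 107 CPM around melanoma, 9.94 ± 2.54 CPM around breast tumours and 20.6 ± 5.19 CPM around lung tumours. Of the 9 A2 genes tested, 7 fell in melanoma against lung and 7 against breast. Ptgs2, the inducible cyclooxygenase, had 8.60 ± 3.30 CPM around melanoma, 21.9 ± 4.32 CPM around breast tumours and 183 ± 36.7 CPM around lung tumours. S100a10, a partner of annexin A2, fell in melanoma against lung (log2 fold change -3.12) and breast (-2.68) and did not pass between breast and lung. In breast against lung, 2 genes of each panel rose and 1 of each fell, where 11.2% of all genes rose and 7.16% fell. Without the 3 libraries poor in long transcripts, 2 A1 genes rose and 1 fell, and 1 A2 gene rose and 2 fell. Several genes of both panels are also made by immune and endothelial cells.

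Genes of the gp130 and Stat3 pathway included ligands and a feedback gene that were lower around melanoma. Of 13 tested, 8 fell in melanoma against lung and 8 against breast, with medians of -1.02 and -1.58. Of all genes, 14.7% and 19.2% fell in those comparisons. The ligands Lif, Osm and Il11 fell in melanoma. Their log2 fold changes were -2.78, -4.01 and -4.46 against lung and -3.38, -4.58 and -2.88 against breast. These ligands held few reads around melanoma, with 45, 13 and 68 in all. They held 446, 302 and 419 reads around breast tumours and 341, 241 and 1619 around lung tumours. Osm was near the floor around melanoma, with a mean of 0.171 CPM, so the size of its change is uncertain. Socs3, the feedback inhibitor induced by Stat3, had 6.64 ± 3.46 CPM around melanoma, 64.3 ± 12.7 CPM around breast tumours and 63.3 ± 36.3 CPM around lung tumours. Il6st, which encodes gp130, and Stat3 itself, named after their values were seen, passed neither melanoma comparison, with 95.5 ± 19.8 and 84.1 ± 38.4 CPM around melanoma, 110 ± 22.9 and 122 ± 30.1 CPM around breast tumours and 109 ± 12.4 and 113 ± 19.1 CPM around lung tumours. In breast against lung 1 gene passed in edgeR, Il11, which fell (log2 fold change -1.58, adjusted p = 0.00479), while limma voom and DESeq2 each called 1 higher and 1 lower. Without the 3 libraries poor in long transcripts, 2 rose and 1 fell in breast against lung. In that fit 8 fell in melanoma against lung and 7 against breast.

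Although Cd44 itself passed no test, its ligands and partners did. Of 12 genes tested, 8 fell and 1 rose in melanoma against lung, and 7 fell and 1 rose against breast. Of all genes, 14.7% fell and 8.51% rose against lung, and 19.2% fell and 9.76% rose against breast. Has2, a hyaluronan synthase, had 0.376 ± 0.134 CPM around melanoma, 1.29 ± 0.808 CPM around breast tumours and 68.9 ± 26.2 CPM around lung tumours. Spp1 (osteopontin, a Cd44 ligand) had 67.0 ± 22.7 CPM around melanoma, 762 ± 378 CPM around breast tumours and 644 ± 268 CPM around lung tumours. Fn1 (fibronectin) had 62.0 ± 24.0, 101 ± 55.9 and 1529 ± 552 CPM around melanoma, breast and lung tumours. Has2 and Fn1 were the 2 that fell in breast against lung, with log2 fold changes of -5.65 and -3.91, where 7.16% of all genes fell. Hyal1, a hyaluronidase, was the gene that rose in melanoma against lung (0.74) and Rdx (radixin) the one that rose against breast (0.46), both named after their values were seen. Among 10 other intermediate filament and linker genes, Lmna (lamin A) fell in melanoma against lung (log2 fold change -1.98) and breast (-1.41), and the neurofilament genes Nefl, Nefm and Nefh passed nothing with all libraries. Without the 3 libraries poor in long transcripts, Nefl, Nefh and Ina (internexin, a neuronal filament) rose in melanoma against breast (0.49, 0.65 and 0.55) and Nefm rose against lung (0.61). Prph (peripherin) and Sync rose in breast against lung (2.17 and 1.10), as Nes did.

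**Figure D3:**
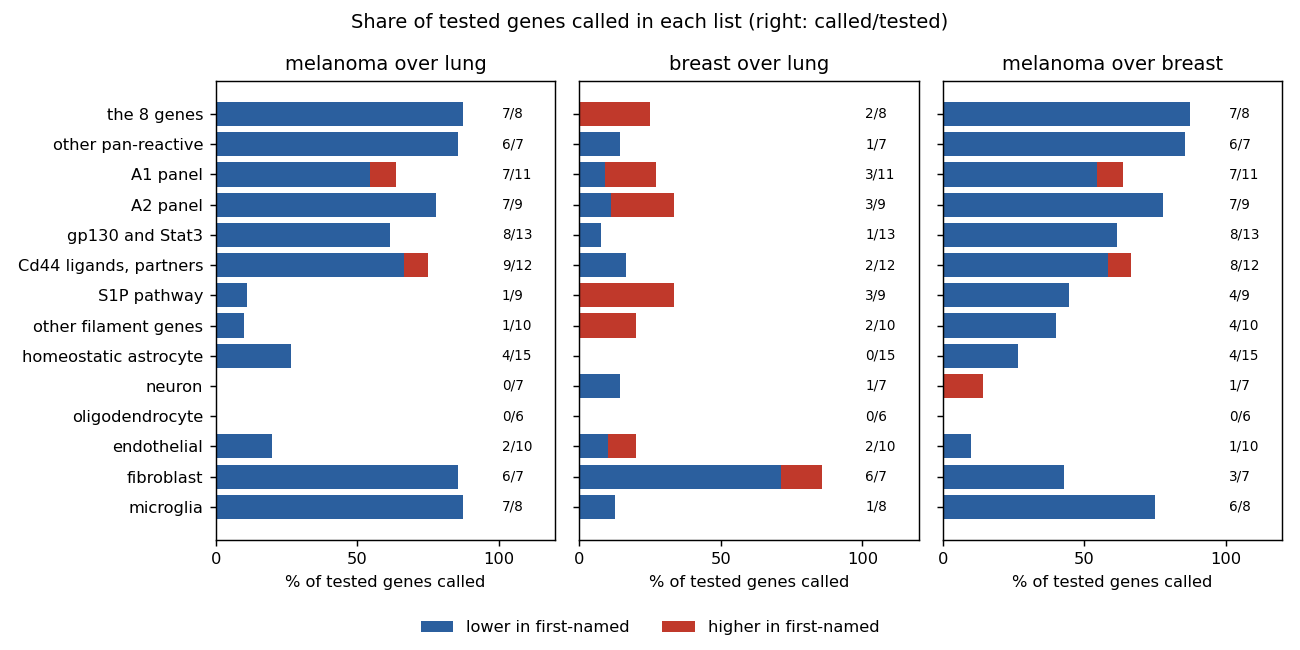
Percent of the tested genes of each list (rows) that were lower (blue) or higher (red) in the first-named model at an adjusted p under 0.05, with called and tested genes at the right of each bar. The 8 genes reach 7 of 8 in both melanoma comparisons, the homeostatic astrocyte genes 4 of 15, and the oligodendrocyte genes 0 of 6 in all 3.

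Some genes of resting astrocytes were lower around melanoma. Of 15 homeostatic astrocyte genes, 4 fell in melanoma against lung, where 14.7% of all genes fell, and 4 against breast, where 19.2% did. In those comparisons none rose, and none passed in breast against lung, where none had an unadjusted p under 0.05 in edgeR and none passed in limma voom or DESeq2. Without the 3 libraries poor in long transcripts, 4 fell in melanoma against lung, 2 fell and 1 rose against breast, and 2 fell in breast against lung. The list medians were -0.23 for melanoma over lung, -0.08 for breast over lung and -0.16 for melanoma over breast. The fallen genes were Aqp4 (water channel), Gja1 (gap junction protein), Sox9 and Mlc1 against lung, and Slc1a3 (glutamate transporter), Aqp4, Gja1 and Mlc1 against breast. Gja1 moved most, with 126 ± 29.1 CPM around melanoma, 276 ± 29.1 CPM around breast tumours and 233 ± 37.7 CPM around lung tumours. The summed CPM of the 15 genes ran from 4305 to 6786 in the melanoma libraries, 4909 to 6584 in the breast libraries and 5220 to 6969 in the lung libraries, overlapping throughout. All 18 libraries held RNA of these 15 genes, with the lowest sums in melanoma replicates 1 and 3 (4305 and 4416 CPM).

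Genes of some other cell types moved with the members as well. Of 8 microglial genes, 7 fell in melanoma against lung and 6 against breast, and their sum ran from 286 to 385 CPM in the melanoma libraries, 785 to 1006 CPM in the breast libraries and 757 to 1117 CPM in the lung libraries. Of 7 fibroblast genes tested, 6 fell in melanoma against lung and 3 against breast, with sums of 105 to 210, 254 to 363 and 383 to 1753 CPM around melanoma, breast and lung tumours. Neutrophil genes summed to 4.30 to 8.33 CPM in the melanoma libraries, 96.1 to 287 CPM in the breast libraries and 25.7 to 214 CPM in the lung libraries. None of the 7 neuronal genes passed in melanoma against lung and 1 rose against breast, and none of the 6 oligodendrocyte genes passed in any comparison. For those counts of 0, edgeR's unadjusted p was under 0.05 for none, and limma voom and DESeq2 called 0. Without the 3 libraries poor in long transcripts, 5 neuronal genes rose in melanoma against breast. Of all genes, 14.7% fell in melanoma against lung and 19.2% against breast. In breast against lung, 11.2% of all genes rose and 7.16% fell. The endothelial counts were near or below those shares. Of 10 endothelial genes, 2 fell in melanoma against lung and 1 against breast, and in breast against lung 1 rose and 1 fell, with a list median of -0.04. The one that rose was Cdh5 (log2 fold change 1.65, adjusted p = 4.54e-06), and the one that fell was Cldn5 (-0.32, adjusted p = 0.028). With the 3 libraries poor in long transcripts left out, 3 endothelial genes fell and 1 rose in melanoma against lung, 3 fell against breast, and 2 rose and 1 fell in breast against lung. Epithelial genes summed to 4.93 to 5.85 CPM around melanoma, 66.6 to 168 CPM around breast tumours and 309 to 1314 CPM around lung tumours. The part of microglia, other immune cells, fibroblasts, vessels or tumour cells in the levels of the 8 genes was not tested.

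Melanoma RNA itself varied among the melanoma libraries, and some of the 8 genes varied with it. The 8 melanocyte genes summed to 14920, 13390 and 22880 CPM in replicates 1, 2 and 3, and to 7077, 4543 and 3671 CPM in replicates 4, 5 and 6, against at most 9.04 CPM in any breast library and 4.69 CPM in any lung library. Vim had 606, 528 and 605 CPM in melanoma replicates 1, 2 and 3 and 289, 208 and 180 CPM in replicates 4, 5 and 6. Cd44 had 169, 161 and 173 CPM in replicates 1, 2 and 3 and 81.4, 52.5 and 50.9 CPM in replicates 4, 5 and 6, so that replicates 1 to 3 alone reached the range of the other models. Emp1 had 13.8, 15.8 and 23.2 CPM in replicates 1, 2 and 3 and 10.8, 7.22 and 5.85 CPM in replicates 4, 5 and 6, all far below the other models. Gfap and Serpina3n divided the same replicates over a narrower range. Gfap had 348, 375 and 449 CPM in replicates 1, 2 and 3 and 317, 329 and 275 CPM in replicates 4, 5 and 6. Serpina3n had 26.2, 29.1 and 32.2 CPM in replicates 1, 2 and 3 and 21.2, 25.0 and 20.8 CPM in replicates 4, 5 and 6. Steap4 was lowest in replicate 1 (0.881 CPM) and highest in replicate 5 (1.94 CPM), and did not follow the melanocyte sum. Other traits divided the same replicates. The slope on transcript length was 0.0524, 0.0721 and -0.273 in replicates 1, 2 and 3 and 0.188, 0.199 and 0.19 in replicates 4, 5 and 6. Neuronal genes summed to 3731, 4265 and 3056 CPM, then 5914, 6308 and 6741 CPM. Homeostatic astrocyte genes summed to 4305, 5110 and 4416 CPM, then 5793, 6786 and 6718 CPM. With 6 libraries these are values only. How much of Vim and Cd44 came from the tumour cells was not tested, nor was the part of these other traits.

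**Figure D4:**
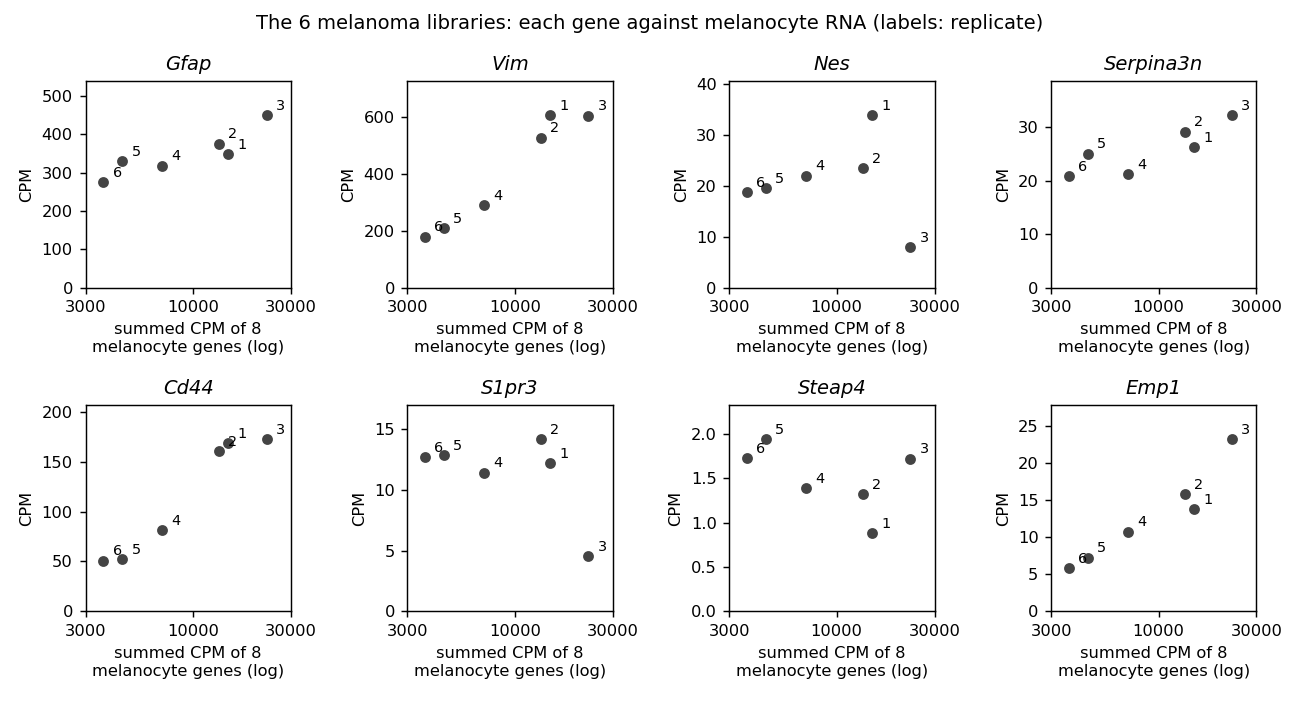
CPM of each gene (vertical axis, from 0) against the summed CPM of 8 melanocyte genes (horizontal log axis) in the 6 melanoma libraries, labelled by replicate. Vim, Cd44 and Emp1 are lowest in replicates 5 and 6, where the melanocyte sum is 4543 and 3671 CPM, and S1pr3 and Nes drop in replicate 3, where it is 22880 CPM.

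In every model some libraries had most members on the same side of the model's mean. In lung replicates 9, 10, 11 and 13 this held for at least 6 of the 8. In lung replicate 13 all 8 genes were above the mean of the model, by a median of 0.35 on the log2 CPM scale. In replicates 10 and 11 all 8 were below it, with median deviations of -0.46 and -0.31. In replicate 9 there were 6 above and 2 below. Replicates 7 and 8 were mixed, with 4 above and 4 below in replicate 7 and 5 above and 3 below in replicate 8. The epithelial sum was lowest in replicate 10 (309 CPM) and highest in replicate 9 (1314 CPM), while in replicate 13, where all members were high, it was 589 CPM. Among the melanoma libraries, replicates 1 and 2 had 7 of 8 genes above the mean and replicate 3 had 6 above. Melanoma replicates 4 and 6 had 6 of 8 below, and replicate 5 had 3 above and 5 below. Among the breast libraries, replicates 16 and 17 had 7 of 8 genes above the mean, replicates 15 and 19 had 6 of 8 below, and replicates 14 and 18 had 5 above and 3 below. Emp1 was highest in breast replicate 18 (542 CPM), one of the shallow libraries, in which Nes and S1pr3 were among the lowest (57.7 and 31.7 CPM).

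**Figure D5:**
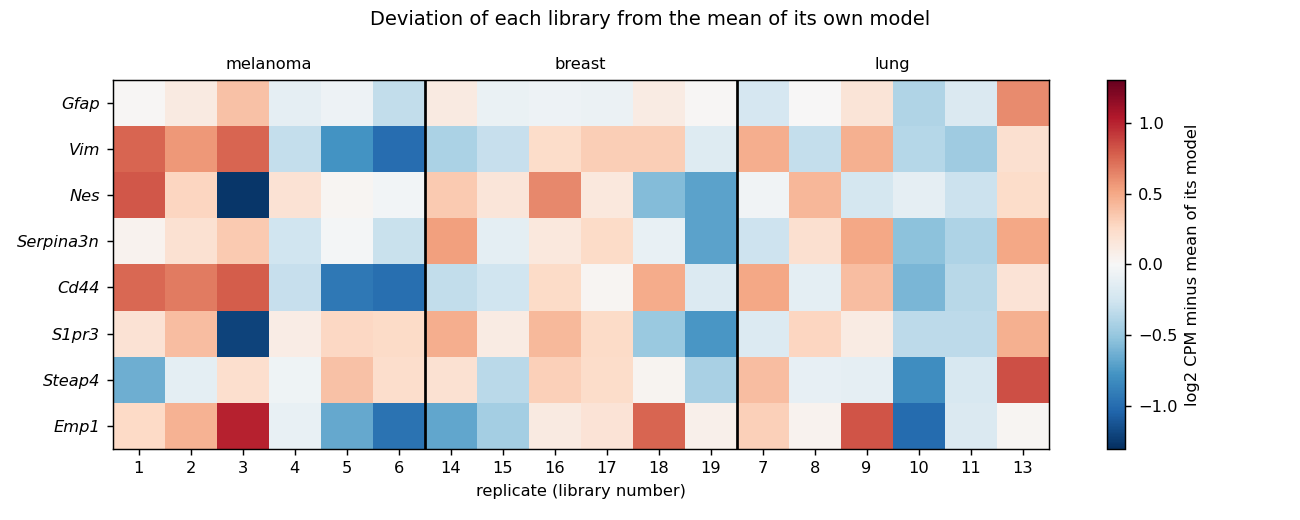
Deviation of each library (columns, by replicate number within melanoma, breast and lung) from its model's mean log2 CPM for each gene (rows), red above and blue below. Lung replicates 10 and 11 are below the mean for all 8 genes and replicate 13 above it (palest for Emp1), and melanoma replicate 3 is deep blue for Nes and S1pr3.

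Each member had its own nearest genes among 16308 searched, by the root mean square difference of centred log2 CPM profiles over the 18 libraries. Gfap was nearest to Cnn2 (0.32), Cebpd (0.33) and Aspg (0.34), the last a gene of the pan-reactive list. Vim was nearest to Anxa2, a calcium-dependent membrane-binding protein, at 0.23, which had 90.1 CPM around melanoma, 418 CPM around breast tumours and 825 CPM around lung tumours. Serpina3n was nearest to A2m, a broad protease inhibitor, at 0.33, with 11.8, 103 and 101 CPM around melanoma, breast and lung tumours. Emp1 was nearest to Plaur, the urokinase receptor, at 0.40. S1pr3 was nearest to Dock8 (0.26) and Olfml3 (0.28), the latter one of the microglial genes. Steap4 was nearest to Pcolce2 (0.37), Hspb8 (0.38) and Castor1 (0.39), Nes to Nbeal2 (0.30), Svil (0.34) and Esyt1 (0.34), and Cd44 to Casp8 (0.17), Litaf (0.20) and Mob1a (0.21).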

How the data were processed

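Poly(A)+ RNA of 18 brains was sequenced as directional libraries, per the labels' protocols. Per the submitters' processing notes, bcl2fastq was among the tools and GRCm39 the genome build. No aligner, counter or gene annotation is named in the labels. The authors deposited raw counts per Ensembl gene and an annotated matrix of CPM. Whole reads were recovered from 100% of the deposited CPM values (tolerance 0.01), and for the 7 members in that matrix they equalled the counts in 18 of 18 libraries. All columns were mapped to a sample.

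Symbols (52135 of 55416 gene IDs, 99.9% of reads) and transcript lengths came from GENCODE M21 on GRCm38, and promoter sequences from RefSeq on GRCm38.p6. The fit used edgeR 4.0.16 under R 4.3.3, with the robust quasi-likelihood F test, TMM factors, filterByExpr and 1 term per model over 18 libraries, with p-values adjusted by Benjamini-Hochberg across the 17174 genes. CPM values are on TMM-scaled library sizes, and centred log2 CPM uses a prior count of 2. Filament ratios are of CPM plus 0.5, tested exactly in SciPy 1.17.1. A count of 3 is 0.206 to 0.407 CPM by library total, and this floor covers counting error only. The SEs come from the quasi-likelihood fit and the SDs are over the brains of a model, so both include the spread between brains. Replicates are separate brains, and no pair of libraries was a duplicate (lowest chi-square per degree of freedom 2.68).

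The members and the 23 lists were chosen with earlier results of these data known. Of each list, up to 5 tested genes with the smallest p for any difference among models were named, all genes of paralog lists could be, and up to 3 nearest genes per member were named. Alternatives were other scalings, filters, tests (DESeq2 1.42.0, limma 3.58.1), fits of 12 libraries and each library left out. The fit was tested on simulated data.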

Additional observations from a re-analysis of the deposited data

Results flagged for a closer look

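In S1pr3, melanoma replicate 3 was far from the other melanoma libraries, with 4.537 CPM against 11.41 to 14.17 CPM in the other 5. In the log2 ratio of Nes to Gfap the same library was lowest, at -5.741 against -4.041 to -3.341 in the other 5. In both cases the gap to the nearest library took up more than 0.625 of the whole range, the 95% critical value of Dixon's test for 6 samples. There were 30 groups of 6 examined in this way and 2 passed that value, where chance gives about 1 in 20. Melanoma replicate 3 was also the melanoma library poorest in long transcripts, with a slope of -0.273 against 0.0524 to 0.199 in the other 5. The part of that slope in these values was not tested.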

How the results depend on the processing

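The 7 genes lower in melanoma than in breast and the 2 genes higher in breast than in lung passed under every scaling, filter, test and left-out library that was run (the CPM settings lack Serpina3n). The 7 of melanoma against lung did too, except Nes. Nes was lost in the test against a 1.5-fold change (adjusted p = 0.409) and without melanoma replicate 4, lung replicate 8 or lung replicate 13, so that 6 or 7 members passed with 1 library left out. Steap4 for melanoma over lung ranged from -1.43 to -0.83, the smaller change coming with a pseudocount on CPM, which shrinks low genes. Tested against 1.5-fold, 1897, 1053 and 2218 genes passed for melanoma over lung, breast over lung and melanoma over breast, against 3978, 3148 and 4966. With 1 library left out the counts ran from 3495 to 4623, from 2575 to 4114 and from 4520 to 8078, and from 5653 to 8720 for any difference (6146 with all). Without melanoma replicate 3 there were 8078 for melanoma over breast, 4020 higher and 4058 lower, and the cause was not tested. Breast over lung changed sign for Serpina3n with upper quartile factors (-0.011), in the fit of 12 libraries (-0.0061) and with single libraries left out (-0.085 to 0.14), and for Cd44 without the 3 libraries poor in long transcripts (-0.041) and with single libraries left out (-0.052 to 0.21). None of these passed a test. With single libraries left out the log2 Vim to Gfap ratio of melanoma over breast ran from -0.057 to 0.23, that of melanoma over lung from -0.58 to -0.29 and that of breast over lung from -0.60 to -0.38. The log2 Nes to Gfap ratio ran from 1.43 to 1.91 for melanoma over lung, from 1.21 to 1.49 for breast over lung and from 0.08 to 0.56 for melanoma over breast. Reads recovered from CPM, an alternative chosen after seeing the data, called 3469, 2719 and 4448 of 13816 genes. No paired analysis was possible because the models share no replicate numbers. Depth limits Steap4 most, with 12 reads in its lowest library.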

Other observations

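Sox2 and Cntf, genes that brain tissue is known to express, are listed with 0 reads in all 18 libraries, as is Ugt1a1 of the A1 panel. How reads shared by overlapping genes were counted is not given in the sources used here, so a listed 0 does not show that a gene is silent. Cntf, with no reads, and the cytokine Clcf1, with 3 reads in all, did not pass the filter on low counts, and the gp130 list rests on 13 of its 15 genes. Of 8 proliferation genes, 2 rose in melanoma against lung (Mcm2 and Aurkb), 1 in breast against lung (Aurkb) and 1 in melanoma against breast (Mcm2), and none fell. Of all genes, 8.51%, 11.2% and 9.76% rose in those comparisons, and DESeq2 called 6, 2 and 1 of the 8 genes. Their sums overlapped, with 247 to 1137 CPM around melanoma, 494 to 743 CPM around breast tumours and 232 to 476 CPM around lung tumours. In melanoma replicates 1, 2 and 3 that sum was 1100, 1005 and 1137 CPM, and in replicates 4, 5 and 6 it was 488, 323 and 247 CPM. Fabp7, a fatty acid binding protein of radial glia and astrocytes from the progenitor list, followed the order of Nes, with 44.7 ± 5.83 CPM around melanoma, 124 ± 36.4 CPM around breast tumours and 84.1 ± 25.1 CPM around lung tumours (SD, n = 6 each). Fabp7 fell in melanoma by 0.91 against lung (log2, edgeR adjusted p = 0.00162) and by 1.47 against breast (adjusted p = 1.02e-05), and breast over lung was 0.55 (adjusted p = 0.0554). Without the 3 libraries poor in long transcripts, breast over lung was 0.21 for Fabp7 (adjusted p = 0.436). The progenitor list as a whole did not share this order. Of its 7 genes tested, 1 fell and 0 rose in each of the 3 comparisons. Its medians were -0.23 for melanoma over lung, -0.38 for breast over lung and 0.22 for melanoma over breast.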
